A study of Mus musculus with 6 samples.

Results

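The cytosolic ribosome is built from ribosomal RNA and a large set of ribosomal proteins, and the messenger RNAs of these proteins are among the most abundant of any cell. Rps genes encode proteins of the small subunit, which decodes the message, and Rpl genes encode proteins of the large subunit, which joins the amino acids and guides the new chain out through the exit tunnel. Their messenger RNAs usually begin with a pyrimidine tract through which mTOR signalling controls their translation, and resting T cells make new ribosomes when they are activated. Members were the genes whose symbol is Rpl or Rps followed by a number and an optional a, x, l or y, together with Rplp0, Rplp1, Rplp2 and Rpsa, with pseudogenes left out. The deposited files list 81 such genes among 17759 genes, 32 of the small and 49 of the large subunit, on 19 chromosomes. A mean over the libraries of at least 10 FPKM (fragments per kilobase of transcript, scaled to the size of the library) was reached by 77 of them, 31 small-subunit and 46 large-subunit genes.

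The libraries came from Treg cells (Foxp3-expressing regulatory T cells) of C57BL/6 mice aged 8 weeks. MondoA, encoded by Mlxip, is a transcription factor that responds to glucose. Knockout (KO) cells were MondoAfl/flFoxp3Cre and wild-type (WT) cells MondoA+/+Foxp3Cre, so all cells carried the Foxp3-driven Cre. Each genotype was measured in 3 states, with 1 library in each of the 6 groups. The iTreg cells were polarized for 4 days from sorted CD4+YFP- naive cells, low in CD44 and high in CD62L, so they had no YFP at the start. Stimulated nTreg cells were kept for 48 h on plates coated with anti-CD3 at 5 μg/ml, with anti-CD28 at 2 μg/ml and IL-2 at 100 U/ml. Resting nTreg cells were CD4+CD25hiYFP+ cells taken from spleen and lymph nodes. With 1 library per group no difference within a state or within a genotype has a replicate check, and intervals beside ratios of libraries are 95% intervals that cover counting error only. Whether the samples are from separate animals or cultures is not stated in the labels, so p-values measure only the spread that a model of state plus genotype leaves between these samples, on 2 residual degrees of freedom.

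Each library held 9760285 to 10185664 expected counts. Mlxip stood at 68.1 CPM (counts scaled to library size) in KO and 168 in WT iTreg cells, at 83.6 in KO and 150.3 in WT stimulated cells, and at 114 in KO and 146 in WT resting cells. Which exons were floxed is not in the labels. All 5 T cell and all 4 Treg markers were above 0 in every library. Markers of other cells were present too. The 6 B cell markers summed to 298 CPM in KO and 215 in WT iTreg cells, 178 in KO and 146 in WT stimulated cells, and 528 in KO and 346 in WT resting cells, with none at 0. The 5 erythroid markers summed to 12.8 CPM in KO and 96.5 in WT resting cells and to at most 4.39 in the other libraries, and the 5 myeloid markers to 38.6 in KO and 48.5 in WT resting cells and to at most 5.95 elsewhere. The 4 CD8 and NK markers summed to 177 CPM in KO and 100.1 in WT iTreg cells and to 24.7 to 53.2 in the other libraries. In the iTreg and stimulated libraries between 0 and 4 of the CD8, NK, myeloid and erythroid markers of a list were at 0. The part of these cells in the results below was not tested.

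Promoter windows from RefSeq on GRCm38.p6 were found for 60 of the 81 genes. The start windows of the 5 genes whose difference from resting cells held under every alternative processing are shown, from 15 bases before the annotated start over 30 bases. Capitals mark a pyrimidine tract that begins at the start itself, a C followed by at least 4 C or T.
Rps27: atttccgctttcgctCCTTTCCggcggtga
Rps27l: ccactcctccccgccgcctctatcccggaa
Rpl28: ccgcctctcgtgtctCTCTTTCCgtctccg
Rpl39: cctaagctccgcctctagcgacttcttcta
Rps2: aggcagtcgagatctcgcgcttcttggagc
These windows lie at chr3:90213634-90213663 on the minus strand (Rps27), chr9:66946071-66946100 on the plus strand (Rps27l, 1 of 2 starts in the table), chr7:4792950-4792979 on the plus strand (Rpl28), chrX:37085208-37085237 on the minus strand (Rpl39) and chr17:24720048-24720077 on the plus strand (Rps2). A tract at the start was present in 14 of the 60 genes (23.3%), against 3.01% of 27025 genes with a promoter window. These outnumber the 17759 listed genes, so they include genes outside these data, and shares over expressed genes only are not given here. Within 10 bases of the start, which allows for starts annotated a few bases off, a tract was present in 38 of 60 (63.3%), against 34.4% of all genes.

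Short motifs were searched on both strands from 250 bases before to 50 bases after the start. CCGGAAG, the core bound by ETS factors such as GABP, was present in 25 of the 60 genes (41.7%), against 9.93% of all genes with a promoter window. As above, all genes here include genes outside these data. AAGATGGC, a YY1 motif whose AAG can coincide with the end of CCGGAAG, was present in 8.33% against 3.19%, and the TATA box TATAAA in 11.7% against 15.7%. CACGTG, the E-box core to which MYC and the MondoA and MLX partners can bind, was present in 6 of the 60 genes, against 8.09% of all genes. Folds by motif are a description of the tested genes. The median log2 fold of stimulated over resting cells was -0.21 for the 13 tested genes with a tract at the start and -0.23 for the 44 without one, and it was -0.31 for the 6 with CACGTG and -0.21 for the 51 without it.

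Ribosomal protein genes took a larger share of the library in KO iTreg cells than in any other. They held 11.5% of the counts in KO and 8.74% in WT iTreg cells, 7.30% in KO and 7.53% in WT stimulated cells, and 7.70% in KO and 8.64% in WT resting cells. The median FPKM of the 77 abundant genes was 2019 in KO and 1473 in WT iTreg cells, 1294 in KO and 1243 in WT stimulated cells, and 1255 in KO and 1424 in WT resting cells. KO iTreg cells were thus the highest library, and the order of the genotypes turned round between the iTreg and the resting pair. Both subunits moved alike. The ratio of large-subunit to small-subunit counts lay between 1.49 and 1.54 in the 6 libraries. In a bulk sample fewer cells of a type and less RNA per cell cannot be told apart.

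**Figure D1:**
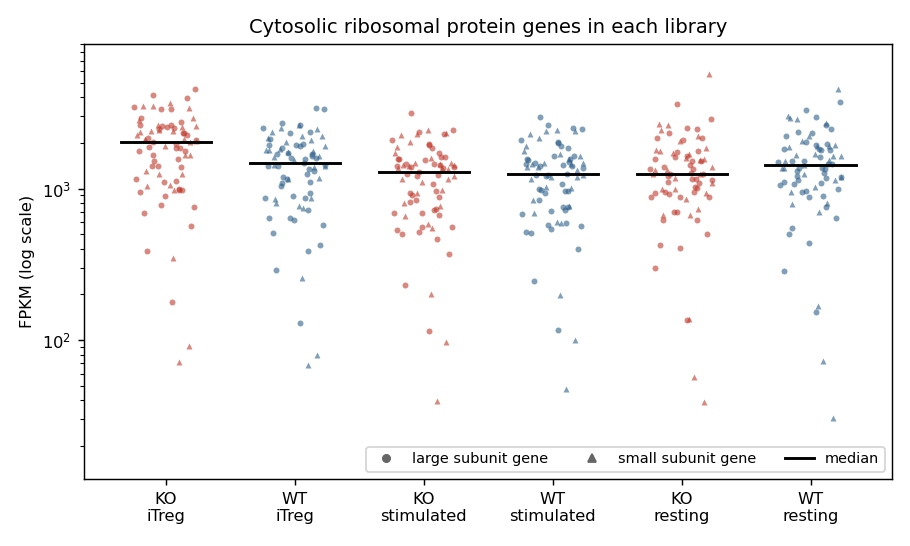
FPKM (log axis) of the 77 abundant ribosomal protein genes in each of the 6 libraries, circles for large-subunit and triangles for small-subunit genes, with the median as a line. The KO iTreg library has the highest median, 2019, and most genes lie within a few-fold of the median in every library.

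Of the 100 genes with the highest mean FPKM, 68 were ribosomal protein genes. The highest on this per-length scale were Rpl23a, a protein at the rim of the exit tunnel, with a mean of 3229.8 FPKM, Rps27, a small-subunit zinc-finger protein, with 3082, Rpl41, which encodes the smallest ribosomal protein, with 2944, and Rplp1, an acidic protein of the stalk that recruits elongation factors, with 2932. The lowest of the 77 were the small-subunit gene Rps15a (59.4 FPKM), Rps27l, a paralog of Rps27 (73.0), Rpl22, known for its role in T cell development (138), and the small-subunit gene Rps20 (218). For Rps15a, Rpl22 and Rps20 the deposited transcript length was 5158, 2193 and 3446 bases, and FPKM divides by this length. The median over the 77 genes was 708 bases. The 4 remaining genes stayed under 10 FPKM in the mean. They were Rps4l (3.91), Rpl39l (0.66), Rpl32l (0.15) and Rpl3l (0.032), and the last of these, a muscle paralog of Rpl3, had 2 counts in KO stimulated cells and 0 in the 5 other libraries.

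Most ribosomal protein genes did not pass the test after stimulation, but a few shifted strongly and in opposite directions. In the additive edgeR quasi-likelihood model with Benjamini-Hochberg adjustment over 12848 genes, 11 of the 78 tested members (14.1%) differed between stimulated and resting nTreg cells at an adjusted p under 0.05, 6 higher and 5 lower. Over all genes tested the share was 46.4%, 24.1% higher and 22.3% lower, and the share of members lies below it. The split by direction depended on the scaling, with 3 higher and 11 lower without TMM factors and 4 higher and 6 lower with DESeq2 size factors. It was 2 higher and 9 lower without the KO resting library. The median log2 fold of the 78 was -0.18, against 0.00 over all genes, and their interquartile range was 0.63, against 1.31. Without the WT resting library the median was 0.02. Fewer members were called without either stimulated library or without the WT resting library, and more without either iTreg library.

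Rps27 and its paralog Rps27l went opposite ways. Rps27 stood at 522 and 559.7 normalised CPM (counts scaled to library total and TMM factor) in KO and WT stimulated cells, against 1840.1 and 1509 in KO and WT resting cells. Both stimulated libraries were far below both resting ones, and Rps27 fell, by a fitted log2 fold of -1.63 (standard error 0.227 and adjusted p = 0.000456). Rps27l, known as a target of p53, stood at 49.5 and 49.8 normalised CPM in KO and WT stimulated cells, against 18.1 and 14.7 in KO and WT resting cells. It rose, the log2 fold being 1.59 with a standard error of 0.199 (adjusted p = 0.000242), and the groups did not overlap. On the FPKM scale Rps27l made up 6.16% of the pair's sum in KO and 5.80% in WT stimulated cells, against 0.68% in KO and 0.67% in WT resting cells. In iTreg cells this share was 3.02% in KO and 3.49% in WT cells, between the other states. Rps27 thus remained the dominant form in every library.

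The other falls were smaller. Rpl39, a short protein that lines the exit tunnel, stood at 97.4 and 100.3 normalised CPM in KO and WT stimulated cells, against 237 and 217 in KO and WT resting cells, and fell with a log2 fold of -1.21 (adjusted p = 0.00112). Rpl36, of the large subunit, stood at 191 and 237 in KO and WT stimulated cells, against 383 and 486 in KO and WT resting cells (log2 fold -1.04, adjusted p = 0.0462). Rps14 and Rps23, both of the small subunit, each fell with a log2 fold of -0.82 (adjusted p = 0.0132 and 0.0190). The falls of Rps14 and Rps23 were no longer past the threshold without the KO stimulated, the WT stimulated or the WT resting library (highest adjusted p = 0.199 and 0.224), and that of Rpl36 without the KO stimulated or the WT resting library, with limma on log2(FPKM + 1) and with a trend of fold on GC content removed (highest adjusted p = 0.244). Rps27 and Rpl39 passed under all 17 alternatives tried. The alternative that added processed copies to their parent genes held no copy of either, so it left their own counts unchanged. The counts of Rpl39 were fractional in the stimulated and iTreg libraries.

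Among the rises, Rps2, a small-subunit protein at the entry channel of the message, stood at 2358 and 2383 normalised CPM in KO and WT stimulated cells, against 927 and 1188 in KO and WT resting cells. Its rise had a log2 fold of 1.15 (standard error 0.260, with an adjusted p of 0.00599) and Rps2, like Rps27l, passed under all 17 alternatives. The alternative that added processed copies to their parent genes held no copy of Rps2 or Rps27l, so it left their own counts unchanged. The counts of Rps2 were fractional in every library, and whether they share reads with a copy was not tested. Rps26, a small-subunit protein at the exit channel of the message, rose by 0.66 (adjusted p = 0.0417), the large-subunit gene Rpl28 by 0.65 (adjusted p = 0.0461) and the small-subunit gene Rps12 by 0.63 (adjusted p = 0.0474). The calls of these 3 genes lay close to the threshold and were lost without the KO resting, the KO stimulated or the WT stimulated library, and that of Rps12 also without the WT resting library, and all 3 without TMM factors and with limma (highest adjusted p = 0.341 for Rps26, 0.377 for Rpl28 and 0.351 for Rps12). The calls of Rpl28 and Rps12 were also lost with DESeq2 size factors, and that of Rps26 with the GC trend removed.

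Rpl37, of the large subunit, was called higher, at 470.6 and 443 normalised CPM in KO and WT stimulated cells against 238 and 233 in KO and WT resting cells (log2 fold 0.94, adjusted p = 0.00687), but its value depended on a copy. Rpl37rt, a processed copy of Rpl37, had 134 and 283 counts in KO and WT stimulated cells, against 3907 and 4978 in KO and WT resting cells, where it exceeded the 2497 and 2341 counts of Rpl37 itself. With the counts of copy and parent summed, the log2 fold was -0.50 (adjusted p = 0.114), so the direction turned. Reads of copy and parent cannot be told apart from these counts alone. The call was also lost without the KO resting or the WT stimulated library (highest adjusted p = 0.0856 with a library left out). Rps23rg1, a copy of Rps23, had 20.4 and 10.9 counts in stimulated KO and WT cells, against 572 and 739 in resting KO and WT cells, but it was small beside Rps23, whose fold was -0.88 with the copy added. Rpl31-ps12 ran the other way, at 2898 and 2665 counts in stimulated KO and WT cells against 914 and 269 in resting KO and WT cells, and Rpl31, a protein at the exit tunnel, stood at -0.49 without and 0.13 with this copy, neither past the threshold. Of the summed counts of Rps15a and its copy Rps15a-ps6, the copy held 45.8% in KO and 32.2% in WT iTreg cells, 40.6% in KO and 33.4% in WT stimulated cells, and 47.9% in KO and 43.7% in WT resting cells. The fold of Rps15a was -0.49 (adjusted p = 0.0725), and with all its copies added it passed, at -0.60 (adjusted p = 0.0442).

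**Figure D2:**
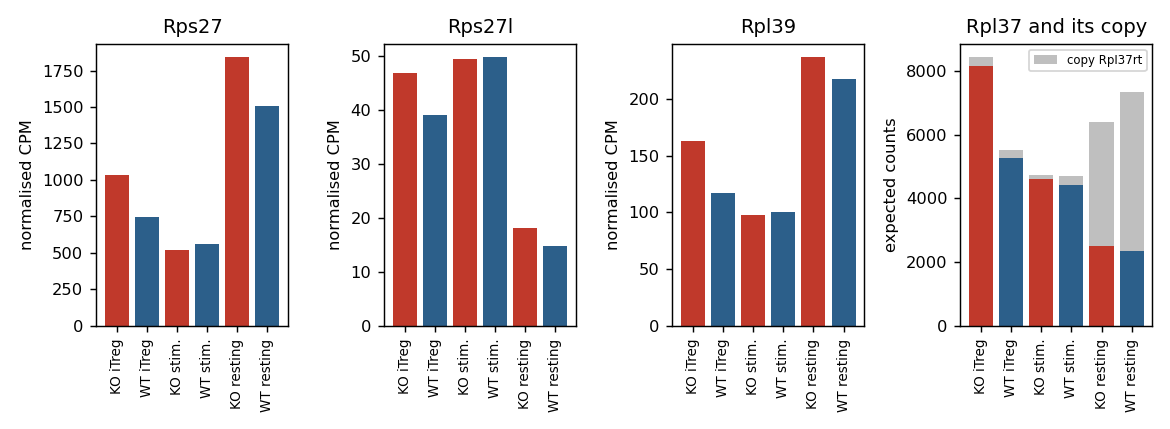
Normalised CPM of Rps27, Rps27l and Rpl39 (first 3 panels) and expected counts of Rpl37 with those of its copy Rpl37rt stacked in grey (last panel), in the 6 libraries, red for KO and blue for WT. Rps27 and Rpl39 are highest and Rps27l lowest in both resting libraries, and the copy outweighs Rpl37 in the 2 resting libraries.

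The response to stimulation was correlated between the genotypes. Across the 77 abundant genes the log2 folds of stimulated over resting cells had a Pearson r of 0.95 and a Spearman rho of 0.92 between KO and WT, values that describe genes within the same libraries and not replicates, and that were 0.92 and 0.91 over 10994 other genes. The sign was shared by 69 of the 77 genes, 26 higher and 43 lower in both genotypes. The median fold was -0.08 in KO and -0.24 in WT cells, against 0.04 over all genes in each genotype. The KO fold lay above the WT fold in 68 of the 77 genes, and this share over all genes is not given here. This difference between the genotypes was not tested, since each rests on 1 library per state.

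**Figure D3:**
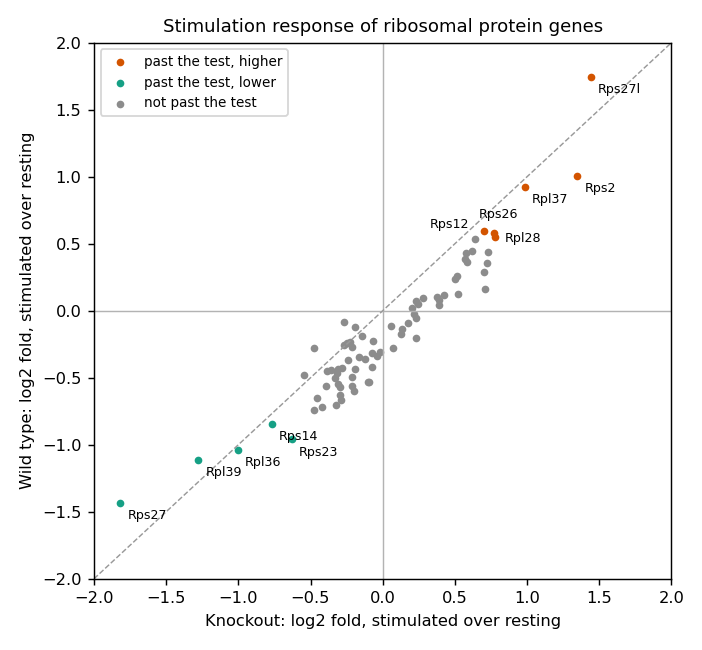
Log2 fold of stimulated over resting nTreg cells for 77 ribosomal protein genes, KO cells on the horizontal and WT cells on the vertical axis, with genes past the test in colour and the line of equal folds dashed. Rps27l, Rps2 and Rpl37 lie at the upper right and Rps27, Rpl39 and Rpl36 at the lower left, and 68 of the 77 points lie below the dashed line, where the KO fold exceeds the WT fold.

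In iTreg cells few members were lower than in resting nTreg cells, and the share that was higher lay at that of all genes. Of the 78 tested, 21 (26.9%) passed, 19 higher and 2 lower, against 47.7% of all genes (23.9% higher and 23.8% lower), and the median log2 fold was 0.28, against -0.01 over all genes. These comparisons share their resting libraries with the stimulated ones. Rpl28 stood at 1690.2 and 1173 normalised CPM in KO and WT iTreg cells, against 593 and 678.5 in KO and WT resting cells, and rose with a log2 fold of 1.15 (adjusted p = 0.00353). Rps27l stood at 46.9 and 39.1 in KO and WT iTreg cells, against 18.1 and 14.7 in KO and WT resting cells, and rose by 1.38 (adjusted p = 0.000489). The iTreg and resting libraries did not overlap for either gene, and these 2 calls were the ones kept under all 17 alternatives.

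Rps20 stood at 1260.5 and 886 normalised CPM in KO and WT iTreg cells, against 450.6 and 566 in KO and WT resting cells (log2 fold 1.06, adjusted p = 0.00592). Rpl37 showed the largest log2 fold, 1.51 (adjusted p = 0.000577), which was 0.07 (adjusted p = 0.840) with the counts of Rpl37rt added. On the lower side, Rps27 stood at 1036 and 748 normalised CPM in KO and WT iTreg cells, against 1840.1 and 1509 in KO and WT resting cells, and fell with a log2 fold of -0.92 (adjusted p = 0.00799). Rpl39 fell with a log2 fold of -0.71 (adjusted p = 0.0146). The 6 genes called higher in both stimulated and iTreg cells against the same resting libraries were Rpl28, Rpl37, Rps12, Rps2, Rps26 and Rps27l. The 2 called lower in both were Rps27 and Rpl39, and none of the 78 was called in opposite directions. Since the resting libraries are shared, the directions of the 2 comparisons are not independent. The shares of all genes called alike or in opposite directions are not given here.

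The difference was larger within KO than within WT cells, which was not tested. Against resting cells of the same genotype the median log2 fold of the 77 genes in iTreg cells was 0.65 in KO and -0.035 in WT cells. In KO cells 62 of 78 members were higher and 3 lower by a log2 fold of at least 0.32, against 38.4% and 36.5% of all genes. In WT cells 18 of 77 were higher and 14 lower, against 35% and 34.1% of all genes. When a smooth trend of fold on transcript length was removed over all genes, the median was 0.36 in KO cells, with 43 higher and 9 lower (37.2% and 36.9% of all genes), and 0.052 in WT cells, with 23 higher and 11 lower (34.7% and 34.4% of all genes), so the sign in WT cells turned. In the model fewer members were called without the KO resting library, and more without the WT iTreg library. The fitted median of 0.28 was 0.13 without the KO and 0.53 without the WT resting library, 0.0015 without the KO and 0.60 without the WT iTreg library. Of the genes above, Rps2, Rps12, Rps20, Rps26 and Rps27 lost their calls without the KO resting library. Rpl39 lost its call without the KO or the WT resting library. The call of Rps12 was also lost with limma at either pseudocount.

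Between iTreg and stimulated nTreg cells no member passed in edgeR, against 14.4% of all genes, although 29 had an unadjusted p under 0.05. DESeq2 called 16 and limma on log2(FPKM + 1) called 1. The log2 fold was positive for 75 of the 78 members, with a median of 0.45 against -0.05 over all genes. Among the most extreme values were 0.71 for Rps27, 0.71 for Rpl13a and 0.69 for Rps15a on one side, and -0.92 for Rps4l, -0.21 for Rps27l and -0.18 for Rps2 on the other. Within a genotype the median was 0.68 in KO and 0.20 in WT cells, and with the length trend removed it was 0.39 in KO and 0.38 in WT cells, so the gap between the genotypes nearly closed. The fitted median was 0.16 without the KO and 0.71 without the WT iTreg library. Most members were called without the WT iTreg library and only a few with either resting library left out, in fits that leave 1 library in a state.

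No ribosomal protein gene passed the test between KO and WT cells over the 3 states. In the additive edgeR model 0 of 78 members passed and 0 had an unadjusted p under 0.05, and DESeq2 and limma also called 0, while 22 of 12848 genes (0.171%) passed in edgeR. The lowest adjusted p among members was 0.681. Fitted log2 folds ran from -0.15 for Rps15a, -0.10 for Rpl5, -0.09 for Rpl21 and -0.08 for Rpl36a to 0.23 for Rps21, 0.25 for Rpl37, 0.25 for Rpl41 and 0.32 for Rps4l. The value of Rps15a was 0.0040 and that of Rpl37 0.13 with the counts of their processed copies added. Their median was 0.09, against 0.02 over all genes, with 68 of 78 positive, and it was -0.11 without the KO or the WT iTreg library, 0.25 at most without another library, and -0.11 with the length trend removed. This model treats a genotype difference seen in 1 state as error, and the 3 genotype pairs differed from each other.

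In iTreg cells all 77 abundant genes were higher in the KO library, by a median log2 fold of 0.48, and 69 of them by at least 0.32, against 30.5% of all 10214 genes compared. Summed over the members, the normalised CPM was 119099 in KO and 86960.4 in WT iTreg cells, a log2 ratio of 0.45. In stimulated cells the sums were 76029.9 in KO and 76036 in WT cells, the median fold was 0.0042, with a sign that turned under other scalings (-0.040 without TMM factors), and 0 of 77 members differed by at least 0.32 either way, against 13.3% of all genes. In resting cells the order was the opposite one, with sums of 72884 in KO and 84064 in WT cells, a median of -0.22, 67 of the 77 lower in KO cells, and 16 of 78 lower and 1 higher by at least 0.32, against 13.2% and 13.6% of all genes. These differences have no replicate check. Medians by subunit were 0.46 (small) and 0.49 (large) in the iTreg pair, and -0.21 (small) and -0.24 (large) in the resting pair.

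Over all genes the iTreg difference ran with transcript length, and among the members it did so more weakly. The Pearson correlation of log10 length and fold was -0.33 over the 77 members and -0.47 over 10137 other genes. The 16 members under 500 bases had a median of 0.56, against 0.69 for other genes of that length, and the 27 members of 500 to under 750 bases 0.46, against 0.66 for the 213 other genes. From 1000 bases up the members lay above the other genes. The 11 members of 1000 to under 1500 bases had a median of 0.49, against 0.41 for other genes, and the 4 of 1500 to under 2000 bases 0.45, against 0.29. The longest member, Rps15a, stood at 0.14, against -0.49 for other genes of 5000 bases or more. Ribosomal protein transcripts are short, with a median of 708 bases against 2567 for all genes with at least 10 FPKM. With the length trend removed, the median of the 77 members in the iTreg pair was -0.07, 55 of them were negative, and 4 were higher and 2 lower by at least 0.32, against 19.8% and 21.8% of all genes. The direction of the difference in iTreg cells thus depended on whether this trend was removed. In the resting pair the 27 members of 500 to under 750 bases were at -0.21, against 0.08 for other genes of that length. With the trend removed the median there was -0.29 over the 77 genes, with 33 of 78 lower by at least 0.32 against 13.1% of all genes. In the stimulated pair it was -0.072. With the trend removed 46 of the 77 genes were negative in all 3 pairs, and as measured 0 were. The share of all genes negative in all 3 pairs is not given here.

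**Figure D4:**
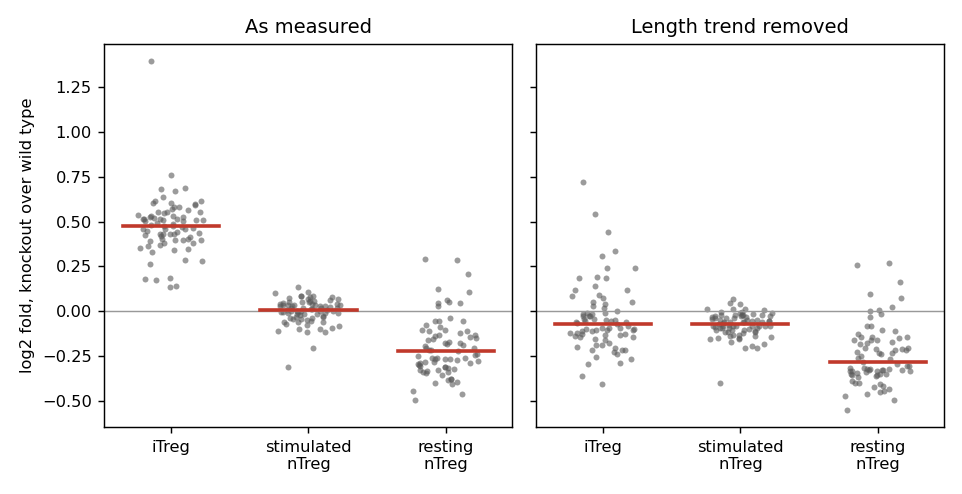
Log2 fold of KO over WT for 77 ribosomal protein genes in iTreg, stimulated nTreg and resting nTreg cells, as measured (left) and with the length trend removed (right), each dot a gene and each line a median. As measured the medians are 0.48, 0.00 and -0.22, and with the trend removed -0.07, -0.07 and -0.29.

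**Figure D5:**
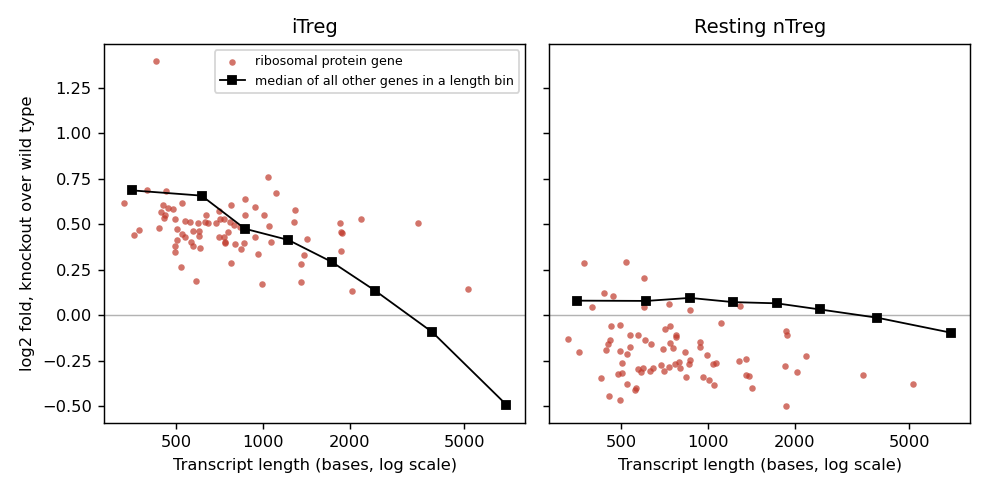
Log2 fold of KO over WT against transcript length (bases, log axis) in iTreg (left) and resting nTreg cells (right), red dots for ribosomal protein genes and black squares for the median of all other genes in a length bin. In iTreg cells the other genes fall with length, to -0.49 in the longest bin. The members fall less, and lie below the squares at short lengths and above them from 1000 bases up. In resting cells most members lie under a nearly flat line of squares.

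A few members stood apart from the rest in a genotype pair. Rpl36 stood at 400.5 normalised CPM in KO and 152 in WT iTreg cells, a log2 fold of 1.40 (interval 1.31 to 1.48) that was 0.72 with the length trend removed, the highest value of the 77 both times. In stimulated cells it was the lowest, at 191 in KO and 237 in WT cells (-0.31, interval -0.40 to -0.22), and in resting cells it stood at -0.34. The WT iTreg library was its lowest of all 6. Next in iTreg cells were Rpl13a, which also serves outside the ribosome in silencing inflammatory transcripts in human cells, at 0.76, and Rps21 at 0.69. The lowest iTreg values were those of Rpl5 (0.13), which binds 5S ribosomal RNA and, outside the ribosome, MDM2, of Rps15a (0.14) and of Rps4x (0.17). Rps15a alone stood at 375 CPM in KO and 353 in WT iTreg cells. With its copy Rps15a-ps6 added these were 691 and 521, and with its copy Rps15a-ps4 added instead 458 and 469.

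In resting cells Rpl21 stood at 1246 normalised CPM in KO and 1757 in WT cells (log2 fold -0.50, interval -0.53 to -0.46), Rpl36a at 311.5 in KO and 430.3 in WT cells (-0.47) and Rpl35, an exit tunnel protein, at 436 in KO and 594 in WT cells (-0.44). All 3 were lower in the KO library, and all were positive in the iTreg pair. Against this, Rps27 (0.29, interval 0.26 to 0.32) and Rps27l (0.29, interval -0.02 to 0.62) were higher in KO resting cells, and the interval of Rps27l included 0. Rps4l, a paralog of Rps4x, had 62 counts in KO and 23 in WT resting cells (1.29, interval 0.65 to 2.12). It had 39 in KO and 47 in WT stimulated cells and 21 in KO and 24 in WT iTreg cells, so its resting difference was not seen in the other states. In stimulated cells the range was narrow, from -0.31 (Rpl36), -0.21 (Rps15a, without its copies) and -0.12 (Rpl36a) to 0.10 (Rpl35), 0.11 (Rpl13a) and 0.13 (Rpl41). No member passed 0.32 the same way in all 3 pairs, and 4 were positive in all 3 as measured, Rpl27 and Rpl37 among them, and none of the 4 with the trend removed.

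Structural groups within the ribosome are set beside all members, whose median was 0.48 in the iTreg pair (quartiles 0.40 and 0.55) and -0.22 in the resting pair (quartiles -0.31 and -0.11). The 4 proteins of the stalk and its base (Rplp0, Rplp1, Rplp2 and Rpl12) had a median of 0.54 in the iTreg pair and -0.22 in the resting pair, and the 9 proteins of the exit tunnel 0.48 in the iTreg and -0.39 in the resting pair, the second of these below the lower quartile of all members. The pair that binds 5S ribosomal RNA and MDM2, Rpl5 and Rpl11, had medians of 0.32 in the iTreg pair, below the lower quartile, and -0.30 in the resting pair. The genes mutated in the human disorder Diamond-Blackfan anaemia had medians of 0.51 in the iTreg and -0.16 in the resting pair for 9 small-subunit members, and 0.51 and -0.31 for 9 large-subunit members. After stimulation, 1 of these small-subunit genes was higher (Rps26) and 1 lower (Rps27), and 0 of the large-subunit genes passed.

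Among the other paralogs, Rpl22l1, which can stand in for Rpl22, made up 39.8% of the pair's FPKM in KO and 47.3% in WT iTreg cells, 40.0% in KO and 35.1% in WT stimulated cells, and 40.1% in KO and 35.6% in WT resting cells. Rpl36al made up 21.7 to 31.0% of its sum with Rpl36a over the libraries, and Rpl7l1 2.16 to 4.25% of its sum with Rpl7. Rpl39l had 2 to 9 counts per library beside 953 to 2486 of Rpl39, and Rpl3l at most 2 beside 12429 to 27628 of Rpl3. Rpl10, whose paralog was not among the listed genes, stood at 1420.1 and 1082.5 normalised CPM in KO and WT iTreg cells, 1137 and 1133.5 in KO and WT stimulated cells, and 686 and 837 in KO and WT resting cells.

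Of the gene lists around the ribosome, the initiation factors had the most calls after stimulation for their number. The other lists held shares near the 46.4% of all genes called in either direction. Most of their calls were higher, while all genes were split into 24.1% higher and 22.3% lower. Of 29 translation initiation factors and their inhibitors, 22 were higher and 1 lower in stimulated than in resting cells, with a median log2 fold of 0.99. Eif3a, a scaffold subunit of the factor that brings messages to the small subunit, rose by 1.79 (adjusted p = 0.000438), and Eif6, which keeps the subunits apart, by 0.80 (adjusted p = 0.0109). Of 16 other genes with pyrimidine-tract messages, 7 were higher and 1 lower (median 0.37). Among them Npm1, a nucleolar ribosome assembly factor, rose by 2.09 (adjusted p = 0.000152) and Eif3l by 1.21 (adjusted p = 0.000896).

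Of 17 tested regulators of ribosomal protein messages and ribosomal RNA, 8 were higher and 0 lower after stimulation (median 0.40). Over all genes 24.1% were higher and 22.3% lower. Larp1, which binds the pyrimidine tract and represses it, rose by 1.76 (adjusted p = 0.000614), and its relative Larp4 by 1.55 (adjusted p = 0.00115). The cytosolic ribosomal protein genes, with 6 higher and 5 lower, had a median of -0.18, against 32 higher and 1 lower of 78 mitochondrial ribosomal protein genes and their median of 0.53. Another 7 genes of the cytosolic ribosome, or paralogs, have symbols outside the naming rule, and 2 of them were higher and 1 lower after stimulation. Of these, Rpl36al stood at 0.41 (adjusted p = 0.135). In the shared genotype contrast 0 genes of these 5 lists passed in edgeR.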

How the data were processed

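RNA sequencing of 6 libraries was analysed, 1 per genotype and state. Per the file headers, the authors deposited expected counts (estimated reads per gene, not normalised), FPKM values and a transcript length for each gene. Bowtie2, HISAT and mm9 are named in the submitters' processing notes without their role; the quantifier and the strandedness are not given in the sources used here, so overlapping genes and near-identical copies may share reads. Fractional expected counts occur in 26 of the 81 members. Identifiers were matched to symbols (17711 of 17759) with a RefSeq table on GRCm38.p6, which also gave the promoter sequences.

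Expected counts were rounded to whole numbers. State and genotype were fitted in 1 additive model with edgeR 4.0.16 (R 4.3.3; TMM factors, filterByExpr, quasi-likelihood test, Benjamini-Hochberg adjustment over 12848 genes, threshold 0.05), which left out Rpl3l, Rpl32l and Rpl39l. Standard errors were derived from the F statistic. Within genotype pairs, log2 folds of normalised CPM used a prior count of 2 and genes with at least 50 counts in the higher library, with exact 95% intervals and no test, and members were counted past a log2 fold of 0.32 in either direction. The length trend was a lowess curve (span 0.3) of fold on log10 length. Alternatives were DESeq2 1.42.0, limma 3.58.1 on log2(FPKM + 1) or log2(FPKM + 0.1), other scalings, no filter on low counts, the length trend fitted with and without the members, and each library left out. Copies added to their parents and a GC trend were chosen after seeing the data. The model was also run on simulated data, and no outcome of that run is given or relied on here. Calculations outside R used Python 3.11.15, pandas 2.3.3, numpy 2.4.6 and scipy 1.17.1.

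Members and lists were chosen with earlier results of these data known, so no set was tested. Named were the 4 members of highest and of lowest mean FPKM, the 4 largest changes in each direction per model contrast, the 3 highest and 3 lowest folds per genotype pair, members with a listed paralog, members outside the test, and up to 2 genes per comparison list by shared genotype fold. Rps12, Rpl28 and Rps23 in the stimulation contrast, Rpl31, Rpl27 and the copies fall outside that rule and were picked after their values were seen. Some genes that the rule names are not reported here.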

Additional observations from a re-analysis of the deposited data

Results flagged for a closer look

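The genotype difference of ribosomal protein genes had opposite signs in 2 states. The median log2 fold of KO over WT was 0.48 in iTreg cells and -0.22 in resting nTreg cells, over the 77 genes with a mean of at least 10 FPKM. Of these, 67 were higher in KO than in WT iTreg cells and lower in KO than in WT resting cells. The share of all genes with these signs is not given here. The median over all genes compared was 0.057 in iTreg and 0.006 in resting cells. What drew attention was that the pairs moved opposite ways, and the difference between them was not tested, since each group is 1 library. With the length trend removed, both medians were negative, at -0.07 in iTreg and -0.29 in resting cells.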

How the results depend on the processing

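No paired analysis was possible because each group has 1 library and the labels give no replicate numbers. With 2 residual degrees of freedom, leaving out a library removes a whole genotype pair from the shared genotype contrast. The lone library of a state is then assumed to vary like the others, and more calls in such fits are not stronger evidence. Counts of called members under an alternative are given without the share of all genes called there. A change in such a count may therefore not be particular to the members. Counting error is small for abundant members, so the unreplicated groups set the limit, and Rps4l rests on 21 to 62 counts. The causes of the shifts below were not tested.

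Members called between stimulated and resting cells numbered 11, 19 with DESeq2, 27 with the length trend removed (28 fitted without members) and 5 to 32 with a library left out; their median of -0.18 ranged from -0.37 (without the KO resting library) to 0.023. For iTreg over resting cells 21 became 11 with limma at either pseudocount, 34 with the length trend removed by either fit, and 4 to 45 with a library left out. For iTreg over stimulated cells 0 became 1 with DESeq2 size factors, 2 without TMM factors, 3 without the low-count filter, 16 with DESeq2, 1 with limma at either pseudocount, 9 with the length trend removed (11 fitted without members), 3 with the GC trend removed and 0 to 55 with a library left out. The shared genotype median of 0.09 was -0.11 with the length trend removed (-0.12 fitted without members) and -0.11 to 0.25 with a library left out.

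In the iTreg pair the median of 0.48 was 0.45 with DESeq2 size factors, 0.42 without TMM factors, 0.41 by FPKM, 0.37 with the GC trend removed and -0.075 with the length trend removed (-0.088 fitted without members), and members past a log2 fold of 0.32 numbered 6 with either length fit instead of 69. In the resting pair the median, here over 78 members with Rps4l, of -0.22 was -0.21, -0.18, -0.19, -0.25, -0.28 and -0.30 in the same order of settings, and 17 members past 0.32 became 34 with the length trend removed (38 fitted without members). In the stimulated pair the median of 0.0042 was -0.0046, -0.040, -0.040, -0.023, -0.072 and -0.089 in that order, and 0 members past 0.32 became 1 (Rpl36) without TMM factors, by FPKM, and with either length fit or the GC trend removed.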
